A study of Mus musculus with 11 samples.

Results

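The genes described here are the neighbours of Bmal1 on mouse chromosome 7, read in primary myoblasts that carry or lack Bmal1. They were chosen by position alone. Bmal1, listed under its gene symbol Arntl, starts at position 113207465 of chromosome 7 (GRCm38 build, GENCODE M21 annotation), and members start within 10 Mb of it on either side, from 103207465 to 123207465. A member also needed a value of at least 10 in 2 or more of the 11 libraries. Arntl itself, ribosomal protein genes, genes with Nduf or Uqcr symbols, small nuclear and small nucleolar RNA genes and a few further genes were left out by the rule, 15 rows in all. This gave 107 members of 14729 tested genes in a table of 22104. The annotation holds 619 genes in the interval, 185 of them olfactory receptor genes, 178 of the 619 have a row in the table, and 56 rows fell under the minimum. Of the members, 97 are protein-coding, 50 start below Arntl and 57 above it, and 90 reached the minimum in all 11 libraries. Just outside the minimum by their second-highest value were Calca at 8.57, Gm15774 at 8.58 and Insc at 9.13, and just inside were BC051019 at 10.7, Gm15489 at 11.8 and Gm5900 at 12.4.

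The cells were primary myoblasts of skeletal muscle from C57BL/6 mice about 8 weeks old, wild-type or Bmal1-/-. All of them grew in Ham's F-10 with 20% FBS and 2.5 ng/ml bFGF and spent 6 h in normoxia (21% oxygen) or hypoxia (1% oxygen). Wild-type normoxia has 2 libraries, and knockout normoxia, wild-type hypoxia and knockout hypoxia have 3 each. Whether the libraries of a group are separate mice or cultures is not in the labels, and the spread behind the p-values below may thus be technical. The labels also do not say how the Bmal1 allele was made, which part of the gene it lacks, or how it was crossed into the strain.

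BMAL1 is a transcription factor that pairs with CLOCK, binds E-box sequences and drives the circadian clock, including its own repressors. Hypoxia acts on transcription through HIF proteins, relatives of BMAL1 that bind a related core sequence. Genes that lie close together on a chromosome are inherited together, so mice homozygous for an allele also share the chromosome around it, and neighbouring genes can further share chromatin and regulatory elements. Sequence differences in the interval between the genotypes were not measured here.

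Values are read counts normalized to 1 size factor per library, and differences are on the log2(value + 1) scale with their standard error (SE). On this scale the change of a gene with few reads comes out too small. A gene is called, and said to have risen or fallen, where limma's moderated test over all 14729 genes gave a Benjamini-Hochberg adjusted p under 0.05. Arntl had 264 and 267 in wild-type normoxia against 109, 117 and 98.8 in the knockout, and 322 to 328 in wild-type hypoxia against 128 to 134. The difference was -1.29 ± 0.10 (SE) in normoxia and -1.31 ± 0.090 in hypoxia, and no knockout library overlapped a wild-type library. Reads remain in the knockout, and because the deleted part is not given, Arntl checks the genotype labels only in part.

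Total reads per library ranged from 18707697 to 33613328, and the hypoxia libraries were all deeper than the normoxia ones. The 6 myoblast markers summed to 41762 to 42314 in wild-type and 43346 to 44918 in knockout normoxia, and to 39003 to 41195 and 43788 to 44728 in hypoxia. Myf5 and Chrna1 rose in both genotype comparisons, Myf5 by 0.59 ± 0.079 and 0.51 ± 0.071, and the other 4 were not called. The 6 fibroblast markers (Pdgfra, Dcn, Lum, Ly6a, Cd34, Col15a1) summed to 3414 to 3543 in wild-type and 1413 to 1530 in knockout normoxia, and to 3302 to 3658 and 1538 to 1812 in hypoxia. In each genotype comparison 5 of the 6 fell, and Lum was under 10 in every knockout library. Both marker sums therefore moved with genotype, fibroblast down and myoblast up. The higher myoblast sum in normoxia came from Chrna1, which rose by 0.19, and Myf5. Myod1 (-0.13), Cdh15 (-0.22), Pax7 (-0.20) and Des (-0.01) had negative differences there. The median difference of the myoblast list was -0.07 in normoxia and 0.06 in hypoxia, so the list did not rise as a whole. What part the marker differences have in the genotype results below was not tested. In bulk RNA, fewer cells of a type and less RNA per cell cannot be told apart. The 5 endothelial markers summed to 20.4 to 61.4 and the 3 leukocyte markers with a row, of 6, to 16.2 to 46.0. Cdh5 and Emcn, of the endothelial list, were under 10 in every library.

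Most neighbours of Arntl kept close levels in both genotypes. In normoxia 14 of 107 members (13.1%) were called, 5 risen and 9 fallen, beside 9.09% of all tested genes (3.44% risen, 5.66% fallen). In hypoxia 14 members (13.1%) were called, 6 risen and 8 fallen, beside 8.95% of all genes (3.33% risen, 5.61% fallen). The normoxia count includes Trim34a and the hypoxia count Xylt1, each of which reached the minimum only in the genotype in which it is high. The shares of all genes also include genes of that kind. The comparisons use different libraries but share the variance estimate of each gene. Whether normoxia and hypoxia libraries of a genotype come from the same mice or cultures is not in the labels. In both comparisons 10 members were called with the same direction, 71.4% of each list and 9.35% of members. Over all genes 818 (5.55%) were called in both with the same direction, of 1339 called in normoxia and 1318 in hypoxia. Most calls over all genes were thus shared as well. The 10 members were Plekha7, Galnt18, Pik3c2a and Gga2, which rose, and Itpripl2, Coq7, Mical2, Arl6ip1, Vps35l and Eef2k, which fell. The median absolute difference of the 107 members was 0.13 in normoxia and 0.12 in hypoxia, beside 0.14 and 0.11 over all genes. Centring each library on its median gave 8 risen and 7 fallen members in normoxia, 53.3% of the calls risen against 35.7%. Over all genes it gave 661 risen and 735 fallen, against 506 and 833, so the shift toward risen calls was not particular to the members. The additional risen members there were Xylt1, Mosmo and Gm4353, named after their values were seen.

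**Figure D1:**
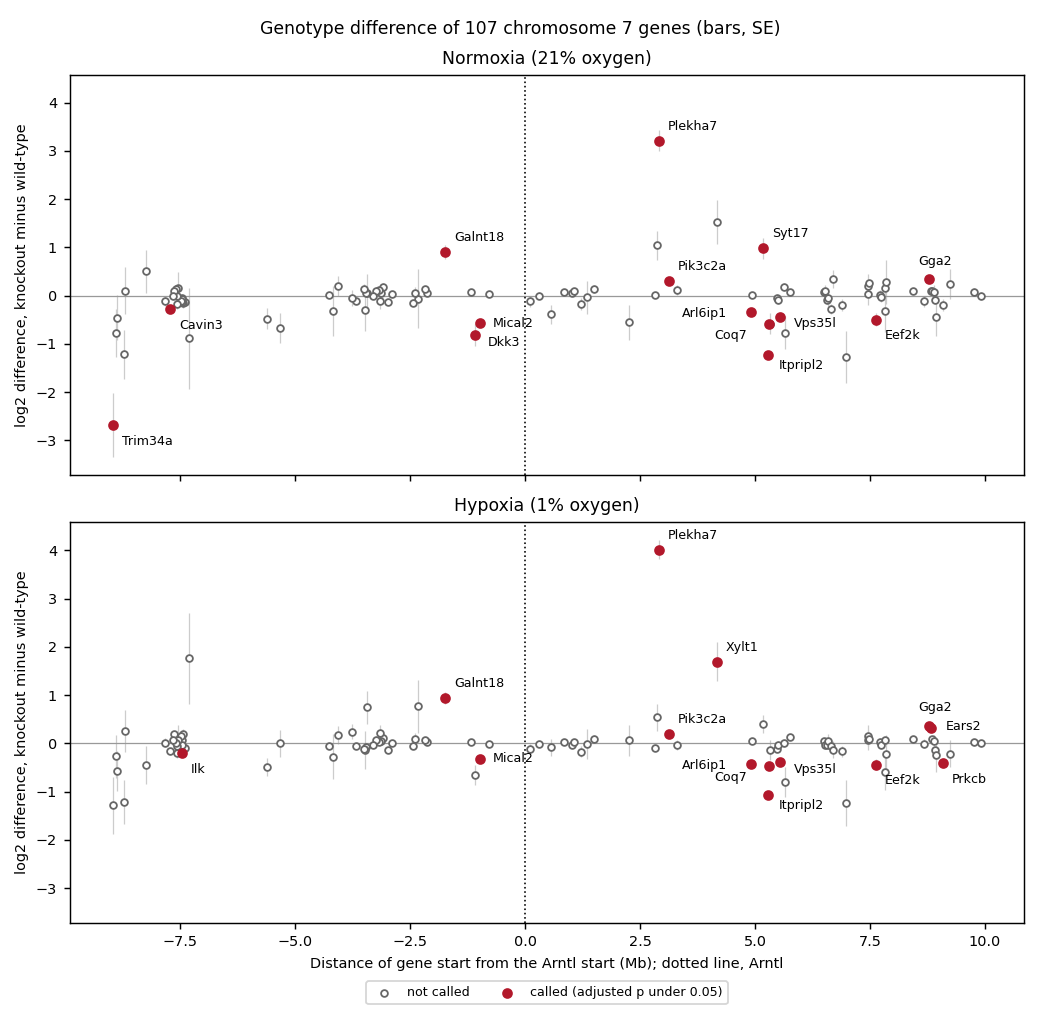
Knockout minus wild-type log2 difference (y axis, bars SE) of each of the 107 members against the distance of its start from the Arntl start in Mb (x axis, dotted line at Arntl), in normoxia (top) and hypoxia (bottom). Filled points are called members; Plekha7 stands highest at 3.21 and 4.01, most open points lie near 0, and called members above Arntl start between 2.92 and 9.08 Mb from it.

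The largest difference that was called in both comparisons was that of Plekha7, a protein of the adherens junction that tethers microtubules there (ENSMUSG00000045659, chr7:116123485-116308376, minus strand, 2.92 Mb above Arntl). In normoxia the wild-type libraries had normalized counts of 31.1 and 18.3 and the knockout libraries 228, 205 and 258. In hypoxia it was 13.3, 17.6 and 18.7 in wild-type and 262, 271 and 307 in knockout. Every knockout library was far above every wild-type library, and the groups did not overlap. Group means were 9.35-fold apart in normoxia and 16.9-fold apart in hypoxia, with log2 differences of 3.21 ± 0.21 (adjusted p 5.56e-07) and 4.01 ± 0.19 (adjusted p 1.41e-08).

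Members of the adhesion, actin and junction list other than Plekha7 moved down or were not called. Of 11 counted members, Plekha7 rose while Mical2 and Cavin3 fell in normoxia, and Plekha7 rose while Mical2 and Ilk fell in hypoxia. The list's median difference was -0.12 and -0.01, beside 0.00 over all genes in both comparisons. For this list and those below, the shares called over all genes are 9.09% in normoxia and 8.95% in hypoxia. No list was tested as a set. Mical2, a monooxygenase that oxidizes actin (ENSMUSG00000038244, chr7:112225856-112413106, plus strand, 0.982 Mb below Arntl), had 2809 and 2909 against 1772, 1983 and 2021 in normoxia. In hypoxia its wild-type libraries had 2477, 2688 and 2953 and its knockout libraries 2140, 2236 and 2122. All 6 knockout libraries lay below all 5 wild-type libraries, by 0.57 ± 0.072 (adjusted p 0.000165) in normoxia and 0.32 ± 0.065 (adjusted p 0.00611) in hypoxia.

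Ilk, the integrin-linked kinase that couples integrins to actin (7.47 Mb below Arntl), had 2912, 2816 and 2712 in wild-type hypoxia against 2379, 2459 and 2516 in the knockout, a fall of 0.20 ± 0.055 (adjusted p 0.0381). In normoxia its groups overlapped at 2871 and 2638 against 2323, 2661 and 2549 (adjusted p 0.206). Parva, the actin-binding partner of ILK in the same complex, was 3251 ± 58.1 (SD, n = 2) against 3312 ± 38.0 (n = 3) in normoxia, with no call (adjusted p 0.793). Cavin3, a coat protein of caveolae, had 686 and 693 in wild-type normoxia against 570, 570 and 563 in the knockout, a fall of 0.28 ± 0.078 (adjusted p 0.0386). These smaller calls rest on few libraries. The Ilk call was lost without any 1 of the knockout libraries or of wild-type libraries 1 and 2 in hypoxia (adjusted p 0.0606 to 0.134), and the Cavin3 call without any 1 of the 5 normoxia libraries (0.0699 to 0.177). Median centring and testing without the filter also ended the Ilk call (0.0596 and 0.0531) and the Cavin3 call (0.0597 and 0.0511), and DESeq2 (0.0520) and quantile normalization (0.0649) ended the latter.

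The fall with the smallest adjusted p at both oxygen levels was that of Itpripl2. Itpripl2, a membrane protein related to the inositol trisphosphate receptor-interacting protein (ENSMUSG00000095115, chr7:118485111-118491975, minus strand, 5.28 Mb above Arntl), had 3217 and 3041 in wild-type normoxia against 1342, 1358 and 1319 in the knockout. In hypoxia it had 3116, 3280 and 3198 against 1498, 1516 and 1577. Wild-type means were 2.34-fold higher in normoxia and 2.09-fold higher in hypoxia, with no overlap. The differences were -1.22 ± 0.048 (adjusted p 3.15e-09) and -1.06 ± 0.043 (adjusted p 3.29e-09).

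Its neighbour Coq7, a mitochondrial hydroxylase of ubiquinone synthesis (ENSMUSG00000030652, chr7:118509659-118533356, minus strand, 5.30 Mb above), had 339 and 354 against 231, 222 and 237 in normoxia. In hypoxia the values were 341, 333 and 316 against 239, 238 and 233. The knockout was lower in every library, by 0.59 ± 0.081 (adjusted p 0.000328) and 0.48 ± 0.072 (adjusted p 0.000631). Among the 6 counted members of the mitochondrial list, Coq7 was the only call in normoxia, and in hypoxia Coq7 fell and Ears2 rose. Ears2, the mitochondrial glutamyl-tRNA synthetase, had 309, 340 and 307 in wild-type hypoxia against 388, 412 and 393 in the knockout, a rise of 0.32 ± 0.072 (adjusted p 0.0122). In normoxia it was 373 and 355 against 379, 376 and 411 (adjusted p 0.531). Without knockout library 2 or wild-type library 3 of hypoxia, the Ears2 adjusted p was 0.0612 and 0.0520.

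Arl6ip1, which shapes the membrane of the endoplasmic reticulum (ENSMUSG00000030654, chr7:118118891-118129662, minus strand, 4.91 Mb above), fell at both oxygen levels. In normoxia it had 2988 and 2784 in wild-type libraries against 2275, 2332 and 2267 in knockout libraries. In hypoxia it had 3006, 2943 and 2782 against 2167, 2197 and 2118. The groups did not overlap, and the falls were 0.33 ± 0.050 (adjusted p 0.000736) and 0.43 ± 0.044 (adjusted p 2.43e-05).

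The 250 bases before the start of these 3 genes and of Mical2 are shown because they are the members that fell at both oxygen levels and kept both calls under every alternative that was run. They come from RefSeq (GRCm38.p6) and read 5′ to 3′ on the gene's strand. Capitals mark the letters of the E-box CACGTG, the E-prime box CACGTT and the hypoxia response element core ACGTG, searched on both strands. The E-box contains the hypoxia core on both strands. Read on the other strand the E-prime box is AACGTG, so it contains the core as well. The stretches are chr7:118129626-118129875 (minus) for Arl6ip1, chr7:118491976-118492225 (minus) for Itpripl2, chr7:118533357-118533606 (minus) for Coq7 and chr7:112225586-112225835 (plus) for Mical2.
Arl6ip1: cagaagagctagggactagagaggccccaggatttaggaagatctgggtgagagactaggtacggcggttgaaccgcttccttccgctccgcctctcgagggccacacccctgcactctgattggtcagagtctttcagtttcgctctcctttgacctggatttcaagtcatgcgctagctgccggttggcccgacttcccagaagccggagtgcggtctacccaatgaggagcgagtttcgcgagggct
Itpripl2: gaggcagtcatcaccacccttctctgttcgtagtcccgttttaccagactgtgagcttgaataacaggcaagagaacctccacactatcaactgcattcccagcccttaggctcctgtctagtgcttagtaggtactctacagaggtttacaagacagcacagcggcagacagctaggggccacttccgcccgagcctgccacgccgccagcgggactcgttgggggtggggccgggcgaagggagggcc
Coq7: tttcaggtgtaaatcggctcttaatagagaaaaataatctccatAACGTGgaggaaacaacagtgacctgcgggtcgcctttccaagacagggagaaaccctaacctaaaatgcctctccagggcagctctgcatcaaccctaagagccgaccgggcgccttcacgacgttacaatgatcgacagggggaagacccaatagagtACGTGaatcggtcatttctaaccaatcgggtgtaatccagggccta
Mical2: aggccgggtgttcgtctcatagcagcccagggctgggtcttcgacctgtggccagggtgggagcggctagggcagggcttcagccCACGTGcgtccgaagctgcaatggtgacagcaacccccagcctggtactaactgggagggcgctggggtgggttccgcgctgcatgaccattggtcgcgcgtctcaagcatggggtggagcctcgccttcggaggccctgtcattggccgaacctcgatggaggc

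Mical2 holds an E-box, Coq7 holds an E-prime box and a further ACGTG, and the stretches of Arl6ip1 and Itpripl2 hold none of the letters searched. A match is a description of the letters and not of binding. Of 107 members, 74 had promoter entries in the RefSeq table and 33 had none, among them Plekha7, Galnt18, Vps35l, Xylt1, Cavin3 and Wee1. An E-box stood in 9 of the 74 members (12.2%), beside 6.86% of all 27025 genes in the table. The E-prime box stood in 5.41% of members and 4.5% of all genes, and ACGTG in 28.4% and 18.5%. The 27025 genes were not limited to those that reached the minimum here, as members are. No share over the tested genes was counted, so the shares are not like for like and nothing is read from them. Of the 7 matched members called in both comparisons, Mical2 and Eef2k held an E-box and Coq7 the E-prime box. Eef2k held it in some but not all of its promoter entries. All 3 fell, but so did Arl6ip1 and Itpripl2, which held neither, while Pik3c2a and Gga2 rose. Most of the 7 thus fell with or without a match.

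The few calls among genes of vesicle traffic and membrane lipids went in both directions. Of 20 counted members, Pik3c2a, Gga2 and Syt17 rose and Arl6ip1 fell in normoxia, and Pik3c2a and Gga2 rose and Arl6ip1 fell in hypoxia, with list medians of -0.02 and -0.04. Pik3c2a, a class II phosphoinositide 3-kinase of endocytosis (ENSMUSG00000030660, chr7:116337265-116443449, minus strand, 3.13 Mb above), lies close to Plekha7. It had 2946 and 2808 in wild-type and 3555, 3723 and 3356 in knockout normoxia, then 2941, 3222 and 3037 against 3585, 3527 and 3472 in hypoxia. The rises were 0.30 ± 0.054 (adjusted p 0.00298) and 0.20 ± 0.048 (adjusted p 0.0166), without overlap. The hypoxia call was lost without knockout library 1 or 2 or wild-type library 1 or 3 (adjusted p 0.0537 to 0.0697).

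Gga2, a clathrin adaptor that sorts cargo at the trans-Golgi network (ENSMUSG00000030872, chr7:121986722-122021222, minus strand, 8.78 Mb above), had 1429 and 1476 against 1855, 1722 and 1961 in normoxia. In hypoxia it had 1547, 1476 and 1522 against 1915, 2076 and 1861. All knockout libraries were higher, by 0.34 ± 0.063 (adjusted p 0.00363) and 0.36 ± 0.057 (adjusted p 0.000845). Vps35l, a subunit of the retriever complex that returns membrane proteins from endosomes to the cell surface (ENSMUSG00000030982, chr7:118740226-118842966, plus strand, 5.53 Mb above), fell. It had 1049 and 1296 against 899, 863 and 826 in normoxia and 1155, 1040 and 1272 against 934, 892 and 824 in hypoxia. The falls were 0.44 ± 0.097 (adjusted p 0.0123) and 0.38 ± 0.087 (adjusted p 0.0122). The wild-type values varied, and without wild-type library 2 the normoxia difference was -0.28 (adjusted p 0.180), while the hypoxia call was lost without knockout library 3 (0.0579) or wild-type library 3 (0.0585).

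Syt17, a synaptotagmin family member (5.17 Mb above), had 27.8 and 35.4 in wild-type normoxia against 64.5, 71.2 and 54.3 in the knockout, a rise of 0.98 ± 0.22 (adjusted p 0.0116). In hypoxia its groups overlapped, at 60.0, 40.1 and 52.9 against 72.7, 56.3 and 72.8 (adjusted p 0.260). Without wild-type library 1 the normoxia adjusted p was 0.112. The difference between the genotype effects at the 2 oxygen levels was -0.58 ± 0.29 and was not called (adjusted p 0.917).

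Several called genes share exon positions with a gene on the opposite strand. Vps35l does so with Knop1, Ilk with Taf10 and Rrp8, Ears2 with Ubfd1, and Pik3c2a, Eef2k, Gga2, Cavin3 and Trim34a with predicted transcripts. The library kit keeps the strand, but whether the counting used it is not given in the sources used here; if it did not, reads at the shared positions cannot be told apart.

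**Figure D2:**
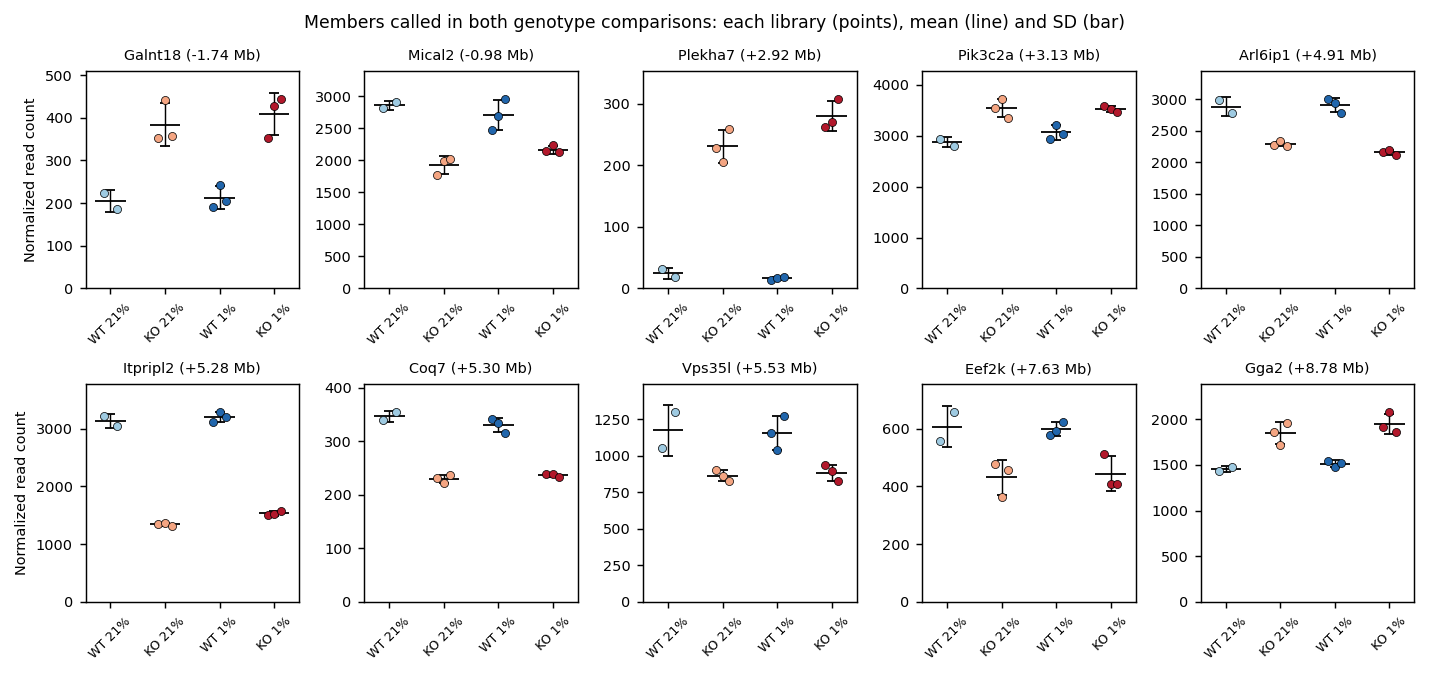
Normalized read count (y axis, from 0) in each library for the 10 members called in both genotype comparisons, in order along the chromosome, with wild-type (WT) and knockout (KO) at 21% and 1% oxygen on the x axis. Points are libraries, lines group means and bars SD (n = 2 for WT 21%, n = 3 otherwise); in each panel the knockout points lie wholly above or below the wild-type points.

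Of the 20 counted genes for RNA, transcription and translation, Eef2k was the only call in either genotype comparison, and the list medians were 0.01 and 0.03. Eef2k phosphorylates elongation factor eEF2 and slows translation (ENSMUSG00000035064, chr7:120842831-120907450, plus strand, 7.63 Mb above). It had 557 and 656 in wild-type and 477, 362 and 456 in knockout normoxia, and 579, 590 and 624 against 513, 407 and 409 in hypoxia. It fell by 0.50 ± 0.13 (adjusted p 0.0253) and by 0.44 ± 0.11 (adjusted p 0.0255), with no overlap. The calls were narrow: without knockout library 2 or wild-type library 2 in normoxia the adjusted p was 0.0812 and 0.232, and in hypoxia it was 0.0552 to 0.108 without any 1 library other than knockout library 1. With only the 2 groups compared, the normoxia adjusted p was 0.0649. Eif4g2, a translation initiation factor with the highest mean of all members, was 21913 ± 131 (SD, n = 2) against 22912 ± 620 (n = 3) in normoxia and was not called (adjusted p 0.354).

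Among 5 metabolic and signalling enzymes, Prkcb was called in hypoxia and none in normoxia. Prkcb, a protein kinase C (9.08 Mb above), had 312, 298 and 268 in wild-type and 216, 215 and 230 in knockout hypoxia, a fall of 0.41 ± 0.11 (adjusted p 0.0315). In normoxia it was 216 and 293 against 232, 211 and 218, overlapping (adjusted p 0.371). The hypoxia call was lost without any 1 library other than wild-type library 3 (adjusted p 0.0579 to 0.118).

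Secreted, matrix and glycan genes held rises and falls among 5 counted members, with list medians of 0.07 and 0.13. Galnt18, of the enzyme family that starts O-linked glycans (ENSMUSG00000038296, chr7:111471661-111779977, minus strand, 1.74 Mb below Arntl), rose in both comparisons. It had 223 and 186 in wild-type and 354, 441 and 357 in knockout normoxia, and 192, 242 and 205 against 352, 428 and 444 in hypoxia. Every knockout library was higher, by 0.90 ± 0.14 (adjusted p 0.000923) and 0.93 ± 0.12 (adjusted p 0.000227).

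Xylt1, which starts glycosaminoglycan chains (4.17 Mb above), was low throughout. It had 3.21 and 9.13 in wild-type and 13.7, 16.2 and 25.0 in knockout normoxia (difference 1.52 ± 0.46, adjusted p 0.0543), and 4.77, 7.03 and 3.11 against 15.5, 20.0 and 17.4 in hypoxia. The hypoxia rise of 1.69 ± 0.41 had an adjusted p of 0.0180, which became 0.0553 to 0.0746 without knockout library 2 or 3 or wild-type library 3. In normoxia the difference was called when wild-type library 2 was left out (2.15, adjusted p 0.0344). Xylt1 reached the minimum of 10 only in knockout libraries, so it is a member through the group in which it is high.

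Dkk3, a secreted Dickkopf family protein (1.09 Mb below Arntl), had 67.5 and 95.9 against 60.8, 41.2 and 36.9 in normoxia, a fall of 0.82 ± 0.24 (adjusted p 0.0456). In hypoxia it had 85.8, 80.1 and 63.7 against 49.5, 41.8 and 52.3 (adjusted p 0.0709). All knockout libraries lay below all wild-type libraries, but the normoxia call was lost without knockout library 2 or 3 or either wild-type library (adjusted p 0.0516 to 0.343). It was also lost with DESeq2, median centring, quantile normalization, no filter or only the 2 groups compared (0.0511 to 0.123), while the last gave a call in hypoxia (0.0384). Spon1, a matrix protein 0.559 Mb above Arntl, was 71.9 ± 1.69 (SD, n = 2) against 55.0 ± 8.62 (n = 3) in normoxia and was not called (adjusted p 0.258).

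At the lower end of the interval lie interferon-inducible TRIM and GTPase genes. Of 6 counted, Trim34a fell in normoxia and none was called in hypoxia, and the list medians were -0.83 and -0.42. Trim34a (8.96 Mb below Arntl) had 12.8 and 13.7 in wild-type normoxia against 2.48, 0.00 and 2.17 in the knockout. In hypoxia it had 8.58, 5.62 and 5.44 against 0.970, 1.82 and 4.10. The normoxia difference of -2.68 ± 0.66 (adjusted p 0.0213) rests on a handful of reads per library, and without knockout library 2 or either wild-type library the adjusted p was 0.0562 to 0.131, and 0.0686 with only the 2 groups compared. Trim34a reached the minimum only in the 2 wild-type normoxia libraries. Trim12a, Trim12c, Trim30d and Trim34a are closely similar genes, and how their shared reads were assigned is not given in the sources used here.

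Calls among the members closest to Arntl lay on its lower side. Genes that the rule left out are not counted here, whatever their distance. Of the 8 nearest protein-coding members on each side, Galnt18, Dkk3 and Mical2 were called in normoxia and Galnt18 and Mical2 in hypoxia, all of them below Arntl. That is 3 of 16 (18.8%) and 2 of 16 (12.5%), beside 9.09% and 8.95% of all tested genes. Above Arntl, Btbd10 at 0.108 Mb was 447 ± 35.2 (SD, n = 2) against 412 ± 8.34 (n = 3) in normoxia, a difference of -0.12 ± 0.11 (adjusted p 0.594). Far1, which makes fatty alcohols for ether lipids and starts 0.306 Mb above Arntl, was 2775 ± 198 against 2773 ± 49.3, a difference of 0.00 ± 0.065. Rras2, a Ras-related GTPase, Copb1, a coat protein of COPI vesicles, and Psma1, a proteasome subunit, differed by 0.07, 0.06 and 0.10 in normoxia and by 0.04, -0.04 and 0.04 in hypoxia. Pde3b, a phosphodiesterase, differed by -0.18 ± 0.12 and -0.17 ± 0.11. Cyp2r1, a vitamin D 25-hydroxylase, had 10.1 to 20.3 in all 11 libraries and differed by -0.04 ± 0.34 and -0.01 ± 0.31.

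Below Arntl, Usp47, a deubiquitinase, differed by 0.07 and 0.02, and Ctr9, a subunit of the PAF1 transcription elongation complex, by 0.14 and 0.07, none called. Mrvi1 ranged from 6.22 to 33.9 with overlapping groups, and its SE was 0.61 in normoxia, so changes of 2-fold could not be seen for it.

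**Figure D3:**
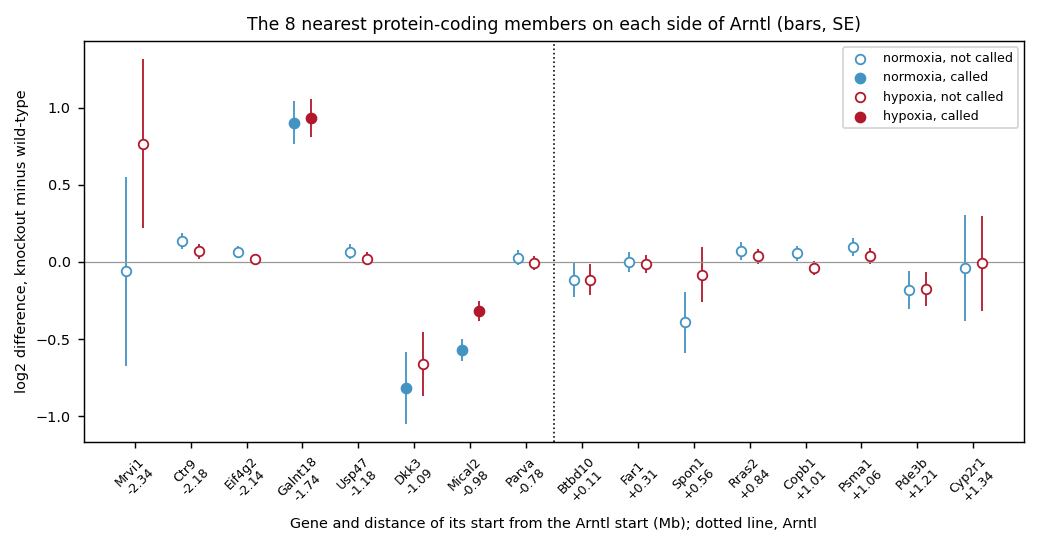
Knockout minus wild-type log2 difference (y axis, bars SE) in normoxia and hypoxia for the 8 nearest protein-coding members on each side of Arntl, in order along the chromosome with the distance in Mb (x axis, dotted line at Arntl). Filled points are called; Galnt18 lies at 0.90 and 0.93, Mical2 at -0.57 and -0.32, and none of the 8 members above Arntl is called.

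Calls did not follow distance from Arntl in a simple order. Below Arntl, 1 of 2 members within 1 Mb and 2 of 3 at 1 to 2 Mb were called in normoxia, 0 of 22 at 2 to 5 Mb and 2 of 23 at 5 to 10 Mb. Above it, 0 of 9 within 2 Mb were called, then 3 of 9 at 2 to 5 Mb and 6 of 39 at 5 to 10 Mb. In hypoxia the counts below were 1 of 2, 1 of 3, 0 of 22 and 1 of 23, and above 0 of 9, 4 of 9 and 7 of 39. Trim34a is among the 2 of 23 in normoxia and Xylt1 among the 4 of 9 in hypoxia, each a member through the group in which it is high. Bins with under 20 members are thin, and no test was made over bins. The stretch from Plekha7 to Vps35l, chosen after its values were seen, spans 2.62 Mb and holds 13 members, of which 7 were called in each comparison, 6 in both and 8 in at least 1. Over all tested genes the shares are 9.09% and 8.95%, 5.55% in both and 12.5% in at least 1, and since the stretch was picked for its calls nothing is read from its count.

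Other stretches of chromosome 7 had shares of the same order. Over its remaining 955 tested genes, 9.01% were called in normoxia and 7.64% in hypoxia. In the 20 Mb below the interval the shares were 10.3% and 7.94% of 126 genes, and in the 20 Mb above it 12.6% and 12.1% of 214. Members in which all 6 knockout libraries lay on 1 side of all 5 wild-type libraries numbered 18 (16.8%), 9 higher and 9 lower, beside 10.3% of all genes (4.05% higher, 6.28% lower) and 11.1% of the rest of the chromosome. Besides called genes these were Swap70, Usp31, Ubfd1 and Gm4353, named after their values were seen. The called genes among the 18 include Trim34a and Xylt1, each of which reached the minimum only in the genotype in which it is high. Called members with a difference of at least 2-fold numbered 3 in each comparison (2.8%), beside 1.77% and 1.55% of all genes. They were Plekha7 and Itpripl2 in both, with Trim34a in normoxia and Xylt1 in hypoxia. The last 2 genes reached the minimum only through the group in which they are high, and without them 2 members (1.87%) remain in each comparison. The shares of all genes still include genes of that kind, so they are not like for like with 1.87%.

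**Figure D4:**
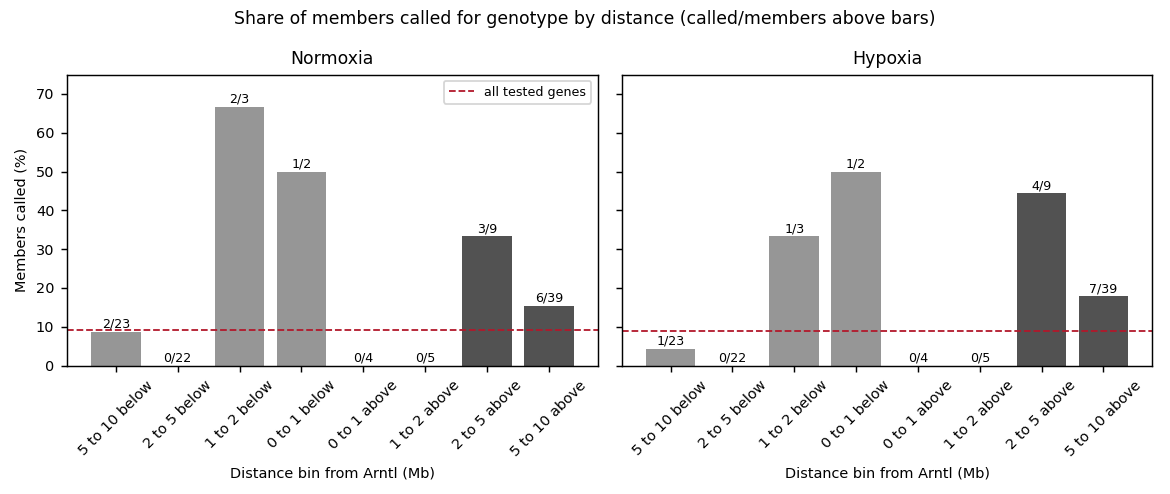
Share of members called for genotype (y axis, percent, from 0) in each bin of distance from Arntl (x axis, Mb below and above), in normoxia (left) and hypoxia (right), with called and counted members printed over each bar. The dashed line is the share of all tested genes, 9.09% and 8.95%; bins at 2 to 5 Mb above Arntl reach 33.3% and 44.4%, and the bin at 2 to 5 Mb below holds none of 22.

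No member was called in the protein turnover list (8 counted, medians 0.10 and 0.05) or the cell cycle and DNA repair list (3 counted, medians 0.08 and 0.06). Wee1, the kinase that restrains mitotic entry and a known output of the clock, starts 3.08 Mb below Arntl. It had 362 and 349 against 418, 400 and 396 in normoxia, without overlap, and 357, 364 and 402 against 370, 421 and 430 in hypoxia, with overlap. Its differences of 0.19 ± 0.086 (adjusted p 0.214) and 0.12 ± 0.077 (adjusted p 0.437) were not called. Sox6, a transcription factor of muscle fibre type 2.26 Mb above Arntl, had 27.3 to 59.4 in normoxia and 24.5 to 60.5 in hypoxia with overlapping groups (adjusted p 0.389 and 0.954). The globin genes of the interval had no counted member. Of 12 BMAL1 and CLOCK target genes elsewhere in the genome, 3 rose and 4 fell in normoxia and 4 rose and 4 fell in hypoxia. Among them Nr1d2 had the largest fall (-3.19 in normoxia and -3.14 in hypoxia) and Cry1 the largest rise (1.58 and 1.74). For both genes no knockout library overlapped a wild-type library.

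The 89 members called in neither genotype comparison ranged from -1.28 to 1.04 in normoxia and from -1.24 to 1.76 in hypoxia. Of them, 65 stayed within 0.25 of 0 in both comparisons, 8 of those with a mean under 100. Of the other 24, 22 had a mean under 100, so the wide differences without a call lay mostly in genes with few reads. The sign was the same in both comparisons for 81 members (75.7%), beside 68.2% of all genes.

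Few members were called after 6 h of hypoxia. In wild-type cells limma called 0 of 107, beside 2.17% of all genes (1.7% risen, 0.468% fallen, 0.55% called with at least 2-fold), with 13 members at an unadjusted p under 0.05. The share of all genes at an unadjusted p under 0.05 was not counted. Nothing is therefore read from such counts, here or below. The edgeR quasi-likelihood test also called 0, and DESeq2 called 1, Mettl9, which rose by 0.22 ± 0.068 (adjusted p 0.0490). The members ranged from -0.94 to 0.76, with a median absolute difference of 0.09 beside 0.11 over all genes. In knockout cells 2 rose (1.87%) and 0 fell, beside 4.09% of all genes (3.15% risen, 0.937% fallen, 0.611% called with at least 2-fold), and 12 members had an unadjusted p under 0.05. The knockout differences ranged from -0.64 to 1.80, with a median absolute difference of 0.09 beside 0.11 over all genes. The hypoxia comparison in wild-type cells has 2 normoxia libraries, so its SEs are larger than those in knockout cells.

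The risen members in knockout cells were Cavin3 and Itpripl2. Cavin3 went from 570, 570 and 563 to 755, 696 and 687, a rise of 0.33 ± 0.070 (adjusted p 0.0170). In wild-type cells it had 686 and 693 against 893, 767 and 748, a difference of 0.21 ± 0.078 that was not called (adjusted p 0.233). Itpripl2 rose from 1342, 1358 and 1319 to 1498, 1516 and 1577, by 0.19 ± 0.043 (adjusted p 0.0218), while in wild-type cells the groups overlapped (0.03 ± 0.048). The Cavin3 call was lost without knockout hypoxia library 1 or knockout normoxia library 1 or 2 (adjusted p 0.0528 to 0.0791). The Itpripl2 call was lost without any 1 of the 6 knockout libraries other than hypoxia library 1 (0.0518 to 0.0973), with median centring (0.0610) and with only the 2 groups compared (0.0533).

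**Figure D5:**
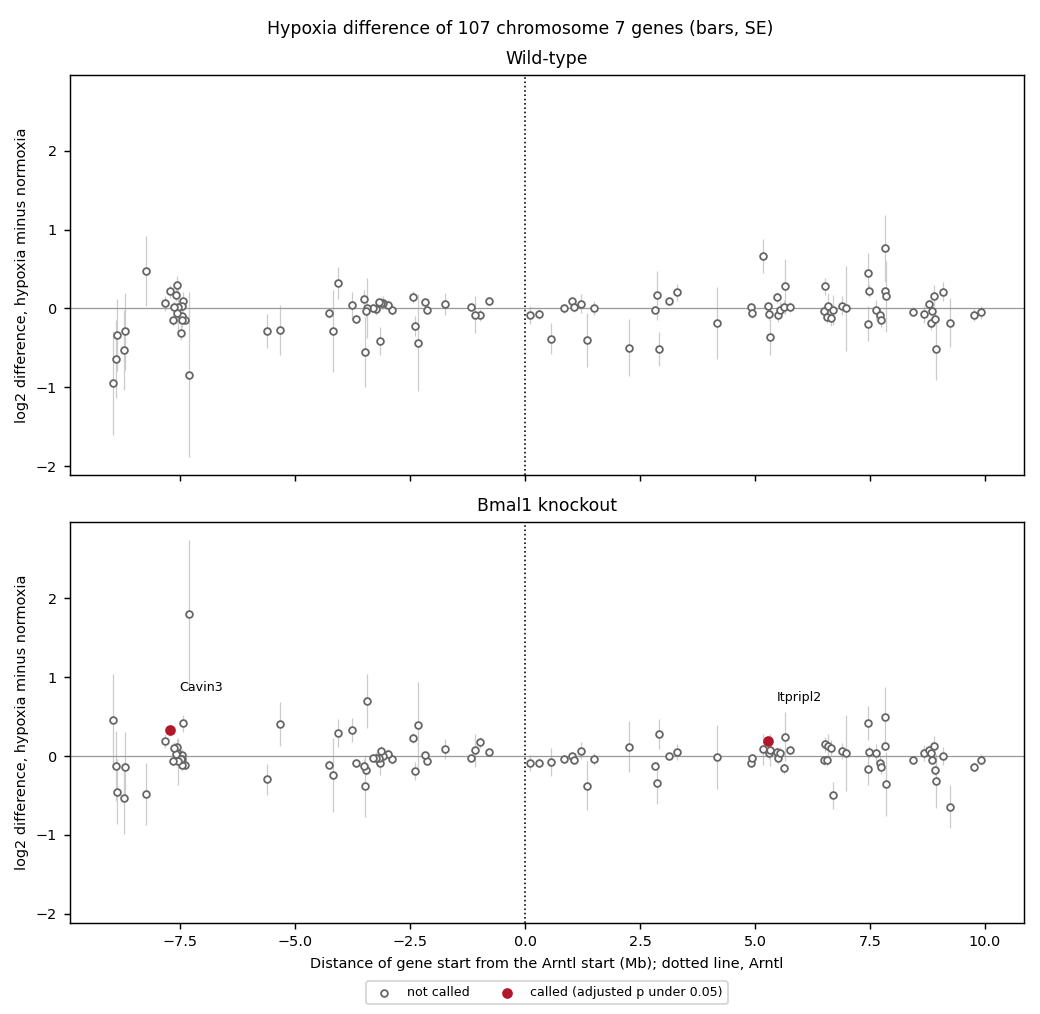
Hypoxia minus normoxia log2 difference (y axis, bars SE) of each of the 107 members against the distance of its start from the Arntl start in Mb (x axis, dotted line at Arntl), in wild-type (top) and knockout cells (bottom). Filled points are called members; none is filled in wild-type and Cavin3 (0.33) and Itpripl2 (0.19) are filled in knockout.

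The hypoxia effect was compared between genotypes by the difference of the differences. No member was called by limma, edgeR or DESeq2, beside 0.00679% of all genes by limma, and 3 members had an unadjusted p under 0.05. Over the members this difference ranged from -0.95 to 2.64. The Plekha7 values were -0.52 ± 0.21 for wild-type and 0.28 ± 0.19 for knockout, a difference of 0.80 ± 0.29 (adjusted p 0.905). Mical2 differed by 0.25 ± 0.097 and Itpripl2 by 0.16 ± 0.065, each with an adjusted p of 0.905. The genotype difference of these genes was therefore not shown to depend on oxygen.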

How the data were processed

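RNA sequencing of total RNA covered 11 libraries in 4 groups. Per the submitters' processing notes, bcl2fastq, STAR, Picard, HTSeq, RSEM and DESeq2 were used with the mm10 build, without versions or order. The values the authors deposited are a normalized signal: each library's read counts over a common size factor. Undoing that factor returned whole numbers, to within 0.01 of a read, for 100% of values. No column was left unused (0). Depth was 18707697 to 33613328 reads per library.

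Genes with at least 10 in 2 or more libraries were fitted together as log2(value + 1) with limma 3.58.1 (R 4.3.3, variance trend, residual degrees of freedom 7, prior 6.35) with 4 groups and 5 two-sided comparisons, and p-values were adjusted over all 14729 genes. The fit was checked on simulated data. Alternatives were pseudocounts of 0.5 and 5, no filter, a minimum of 50, median centring, quantile normalization, edgeR 4.0.16 and DESeq2 1.42.0 on the recovered read counts, a fit of the 2 groups compared, and leaving out each library. Distances are from gene start to the Arntl start in GENCODE M21.

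Named genes were the 8 nearest protein-coding members on each side, all called in both genotype comparisons, the largest called in 1, those called for hypoxia, and Wee1, Sox6 and a few others fixed by symbol. The members, lists and tests were chosen with earlier results of these data known. Of the members, 84 are in at least 1 of the 10 lists and 23 in none.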

Additional observations from a re-analysis of the deposited data

How the results depend on the processing

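No paired analysis was possible because the labels give no number or origin that links libraries of different groups. Under median centring the members risen in the normoxia genotype comparison numbered 8, and those risen in knockout hypoxia 1. With only the 2 groups compared, knockout hypoxia also gave 1. DESeq2 and a minimum of 50 each gave 3 there, against 2 in the reported fit. The shares of all genes called in knockout hypoxia were 4.22% (median centring), 3.54% (2 groups), 4.53% (DESeq2) and 5.28% (minimum of 50), against 4.09%. DESeq2 gave 1 risen member in wild-type hypoxia. In the normoxia genotype comparison DESeq2 and the fit of 2 groups each gave 6 fallen members, against 9. The share of all genes called there was lower as well, at 8.21% and 5.76% against 9.09%. Leaving out 1 library gave 5 to 6 risen and 4 to 8 fallen members in the normoxia genotype comparison, 3 to 6 and 4 to 6 in hypoxia, and 0 to 2 risen in knockout hypoxia. All counts for wild-type hypoxia and for the difference of hypoxia effects, and the fallen count in knockout hypoxia, were 0 to 0 when 1 library was left out. The lowest normoxia total came without wild-type library 2, 10 members beside 4.54% of all genes, and the lowest hypoxia total without knockout library 2, 8 beside 6.21%.

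Windows of 5 Mb and distances from the transcription start left 13.3% and 13.1% of members called in each genotype comparison. With only the 2 groups compared, 294 genes rose and 555 fell in normoxia against 506 and 833. Over all genes, median centring changed knockout hypoxia from 464 risen and 138 fallen to 395 and 226. Of the values for single named genes, 2439 kept their side of the threshold, 65 lost the call, 4 gained it and 0 changed sign after being called. Most of the 2439 were values not called in the reported fit, and uncalled differences near 0 could change sign among them. Plekha7, Galnt18, Mical2, Arl6ip1, Itpripl2, Coq7 and Gga2 kept both genotype calls under every alternative run. Depth limits mainly the members with a mean under 100.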
